A study of Mus musculus with 4 samples.

Results

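The stretch of mouse chromosome 13 around Fgf10, called the Fgf10 window here, was examined for TBX5 binding in the embryonic forelimb. Its members are the listed TBX5 peaks on chromosome 13 whose summit lies from 118.5 to 120.2 Mb. The rule used position alone, and it found 19 of the 11224 peaks of the list, 0.169% of them. The study profiled TBX5 by ChIP-seq, in which an antibody pulls a protein down with the chromatin it is bound to, and the recovered DNA is sequenced. Forelimb buds came from wild-type embryos of outbred ICR mice at embryonic day 10.5. The 2 TBX5 ChIP libraries were made with a polyclonal antibody against TBX5, and the labels list 2 input libraries, the background of sheared chromatin. The labels do not say how many embryos were pooled for a library or whether the replicates came from separate litters. The forelimb bud is a mixed tissue of mesenchyme and covering ectoderm, and the list cannot say in which cells a site was bound.

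TBX5 is a T-box transcription factor that marks the forelimb field and is required for the forelimb bud to form. Fgf10 encodes a secreted fibroblast growth factor made by the limb mesenchyme, and it is the best known target of TBX5 in limb outgrowth. FGF10 acts on the overlying ectoderm through the receptor FGFR2, where it promotes Fgf8 expression in the apical ectodermal ridge, and FGF8 signals back to the mesenchyme to keep Fgf10 expressed. Mice without Fgf10 form no limbs.

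The RefSeq gene table of GRCm38.p6 was used for the identity and the neighbours of the gene only. Fgf10 (gene 14165) is 77.9 kb long there and is read on the plus strand. The nearest protein-coding gene before it is Mrps30, which encodes a protein of the mitochondrial ribosome, and the nearest after it is Nnt, which encodes a mitochondrial transhydrogenase. To let the start of Fgf10 be found in any build, the 30 bases directly before its RefSeq start site on the plus strand are given, 5′ to 3′.
Fgf10, bases before the start: tagactccaggcttcaacctgtttacaagc

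The T-box letters AGGTGTGA, and the shorter forms AGGTGT and GGTGTG that overlap it, were searched on both strands of the RefSeq promoter of Fgf10, which runs from 250 bases before to 50 after the start. None of the 3 was found in this window. Among 32851 promoters of the same length, 1.28% held AGGTGTGA, 13.7% held AGGTGT and 19.05% held GGTGTG. The absence of these letters says nothing about binding elsewhere at the locus.

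The build decides which peaks lie at the gene. The labels name mm10 (GRCm38), but the listed peaks ran past the mm10 end of 5 of 20 chromosomes, by up to 6.95 Mb, while all of them fitted within the chromosome lengths of mm9. Chromosome 13 itself ran past neither. In mm9, Fgf10 lies near 119.5 Mb, a rounded position that comes from general knowledge of that build and not from the files. The ends of the gene and its exons on mm9 were not used here, so no peak was assigned to a promoter, exon, intron or UTR. All positions are given as deposited, converted to 1-based, and are referred to below as positions of the list. Members are numbered 1 to 19 along the chromosome.

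The 19 peaks were described in 3 stretches, with empty intervals of 222.9 kb and 53.8 kb between them. The division serves description only. Wider intervals than 53.8 kb lay inside the outer stretches, up to 333.6 kb in the first and 131.1 kb in the last. Joined within 50000 bp, the peaks formed 8 groups. Peaks 1 to 8 were spread over 663.0 kb on the low-coordinate side. Peaks 9 to 13 formed a compact group of 5 within 32.9 kb, close to the 119.5 Mb at which mm9 places Fgf10. Peaks 14 to 19 followed over 243.3 kb, and no peak of chromosome 13 was listed beyond them.

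**Figure D1:**
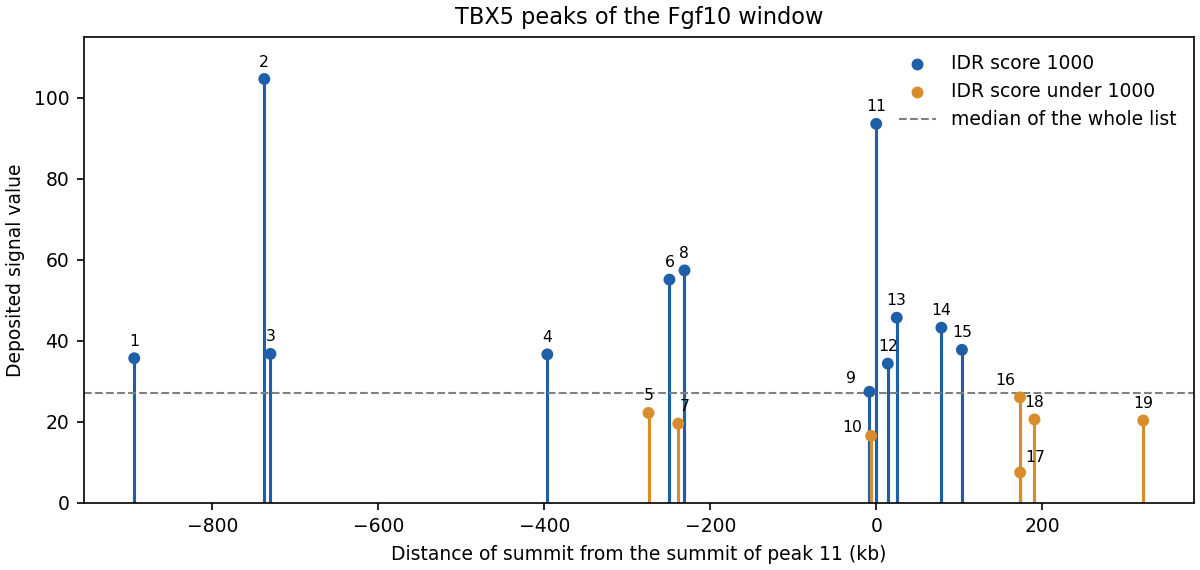
Deposited signal value of each of the 19 peaks (vertical axis, no unit stated) against the distance of its summit from that of peak 11, in kb (horizontal axis); blue marks an IDR score of 1000, orange a lower score, and the dashed line the median signal of all 11224 peaks. Peaks 2 and 11 stand above the others at 104.6 and 93.5, and the compact group of peaks 9 to 13 lies around 0 kb.

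Each peak carries 2 values that matter here. The signal value is the strength that the authors' peak caller gave it, on a scale that the labels do not state. The IDR score rests on the irreproducible discovery rate, estimated from both replicates. This is the expected share of irreproducible peaks among those ranked at least as high, not the chance that a single peak fails to recur. The score runs from 540, an IDR of 0.05, to a ceiling of 1000, an IDR of 0.00391 or less. The list holds 1 value per peak and none per replicate, so no standard deviation or test over samples could be given, and the score is the only record of replicate error. All comparisons below are descriptions across peaks, which are not replicates.

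The compact group was made of 1 strong peak, 3 peaks at or above the middle of the list and 1 weak peak. Peak 11 (chr13:119510574-119510885, summit 119510721) had a signal of 93.5, which was 3.44 times the list median of 27.2 and ranked 349th of all peaks. Peak 13 (chr13:119535220-119535635) had a signal of 45.7, above 80.8% of the list. Peak 12 (chr13:119524440-119524855) reached 34.4, or 1.26 times the list median. These 3 peaks had the highest score of 1000.

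The other two peaks of the group lay on its low-coordinate edge, 1978 bp apart. Peak 9 (chr13:119502358-119502773) had a signal of 27.4, 1.01 times the list median, and still scored 1000. In the whole list, 25.05% of the 1641 peaks with a signal from 25 to 30 scored 1000. Peak 10 (chr13:119504336-119504751) was the least reproducible member, with a score of 566, an IDR of 0.0433. Its signal of 16.5 exceeded 12.8% of the list. The low-coordinate edge of the group thus held its 2 lowest signals, and peak 11 lay 6177 bp beyond peak 10. Because the 119.5 Mb mark is rounded, it does not show which of the 5 peaks lies nearest to Fgf10.

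Together the 5 peaks held 26.3% of the members in a span of 1.93% of the window's length, and 29.4% of the summed signal. The group was formed by joining these same summits within 50000 bp, so its short span follows in part from that choice. The 32.9 kb used next is the span of the group itself. In the whole list, 861 peaks (7.67%) belonged to some run of 5 summits packed within the same 32.9 kb, in 146 separate places. After removal of every peak that had a stronger one within 500 bp, all 5 were still present. Of the remaining 10085 peaks, 399 (3.96%) lay in such runs, and 70 runs could be counted without a shared peak. Packing of this degree was thus found in a minority of peaks, and not only near Fgf10. The median signal in the group was 34.4, against 36.2 for the other 14 members, a difference far smaller than the range within either set.

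The strongest peak of the window lay far from the compact group. Peak 2 (chr13:118773243-118773499, summit 118773382) had a signal of 104.6, 3.85 times the list median, and ranked 243rd of all peaks and 18th on chromosome 13. It lay 726.6 kb before the 119.5 Mb mark. Peak 3 (chr13:118780596-118781011), 7.42 kb further on, had a signal of 36.8. Peak 1 (chr13:118616444-118616859) stood alone, 156.7 kb before peak 2, with a signal of 35.7. After peak 3 came the widest empty interval between members, 333.6 kb. Each of these 3 peaks scored 1000.

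Peak 4 (chr13:119114201-119114616) was isolated between that interval and one of 121.9 kb, with a signal of 36.6 and a score of 1000. Peaks 5 to 8 then formed a group of 4 within 43.4 kb that mixed strong and weak sites. Peak 8 (chr13:119279586-119279787) had a signal of 57.3 and peak 6 (chr13:119261347-119261762) one of 55.1, both with a score of 1000. Peak 7, between them, had a signal of 19.5 and a score of 589, and peak 5 had 22.2 and 737. The strong and the weak peaks of this group alternated along the chromosome. It ended 222.9 kb before peak 9.

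On the high-coordinate side, the 2 peaks nearest to the compact group lay above the list median. Peak 14 (chr13:119589043-119589458) and peak 15 (chr13:119613794-119614209) had signals of 43.2 and 37.8 and scores of 1000. The 4 peaks after them all had signals under the list median and scores under 1000. Peak 16 had a signal of 26.02 and a score of 917. Peak 18 had 20.6 and 631, and peak 19, the last on chromosome 13, had 20.3 and 608. The median signal of peaks 14 to 19 was 23.3, against 36.7 for peaks 1 to 8. The value of 23.3 includes peak 17, the weakest member at 7.49, which overlaps peak 16 and lowers that median.

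Peaks 16 and 17 were listed separately but shared sequence. Their summits were 218 bp apart and their intervals overlapped by 198 bp. Peak 17 (chr13:119683972-119684387) had the lowest signal of the window, 7.49, which was 0.288 times that of peak 16, yet the same score of 917. Its q-value was 0.421, and it was the only member with a q-value above 0.05. In the whole list, 681 of 11224 peaks had a q-value above 0.05. A q-value of 0.05 or below was held by 94.7% of the members and 93.9% of the list, which are similar shares. Whether the pair is 1 site or 2 was not tested. Counted as 1, the window held 18 peaks.

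**Figure D2:**
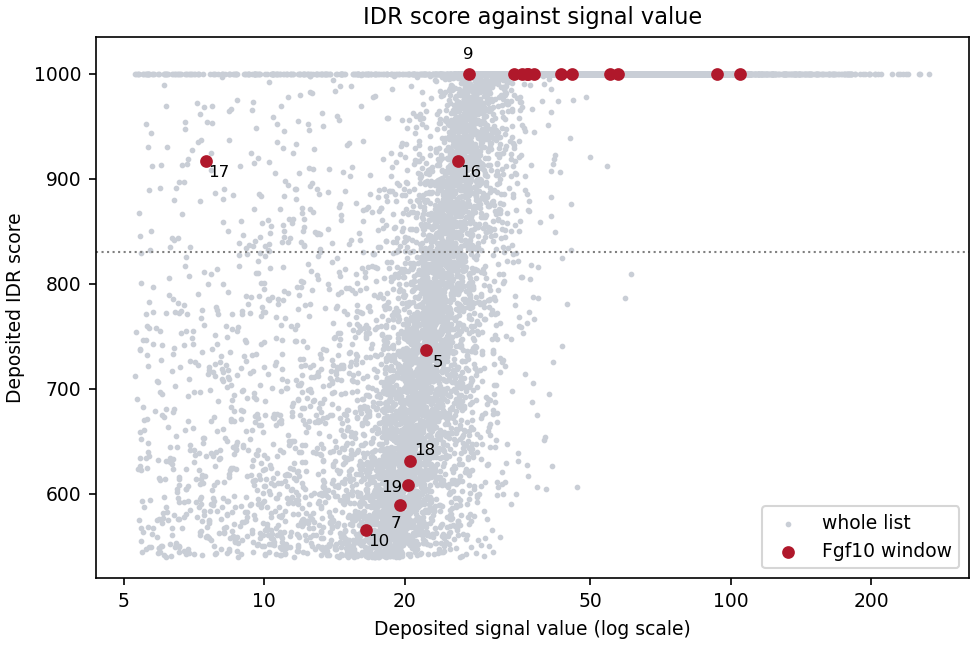
Deposited IDR score (vertical axis) against deposited signal value (horizontal log axis) for all 11224 peaks in grey and the 19 peaks of the Fgf10 window in red, with the dotted line at a score of 830 and numbers for the members under 1000 and for peak 9. The 12 members with a signal of 27.4 or more lie at the ceiling of 1000, and peak 17 lies apart at a signal of 7.49 and a score of 917.

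By reproducibility, 14 of the 19 members (73.7%) had a score of at least 830, which is an IDR of 0.01 or below, where the share in the whole list was 60.0%. The highest score of 1000 was reached by 12 members (63.2%), where the share in the whole list was 45.4%. In the window of equal length just before the Fgf10 window, 11 of 15 peaks (73.3%) scored at least 830 and 8 (53.3%) scored 1000. The share at 830 or above was thus not particular to the Fgf10 window. With 19 peaks, each member moves such a share by several points, and no test was made. Signal separated the scores without overlap. The 12 members at 1000 had signals from 27.4 to 104.6, and the 7 others had signals from 7.49 to 26.02. Across the 19 members, Spearman's rho between signal and score was 0.83, and it was 0.797 over the list. The score rests on ranks in the replicates, so the measures are not independent.

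The members ranged widely in strength. Their median signal was 35.7, against 27.2 in the list, and 12 of 19 (63.2%) lay above the list median. Peaks 2 and 11 were the 2 members (10.5%) in the top signal decile of the list, which holds 10% of all peaks by construction and begins at a signal of 61.3. They held 26.7% of the window's summed signal. The next, peak 8 at 57.3, fell short of that decile. Above the upper quartile of the list lay 6 members, and 3 lay below the lower one. The share of very strong peaks was thus close to that of the list, while the median was 1.31 times as high. When members and list were both limited to scores of at least 830, the median was 1.03 times as high.

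**Figure D3:**
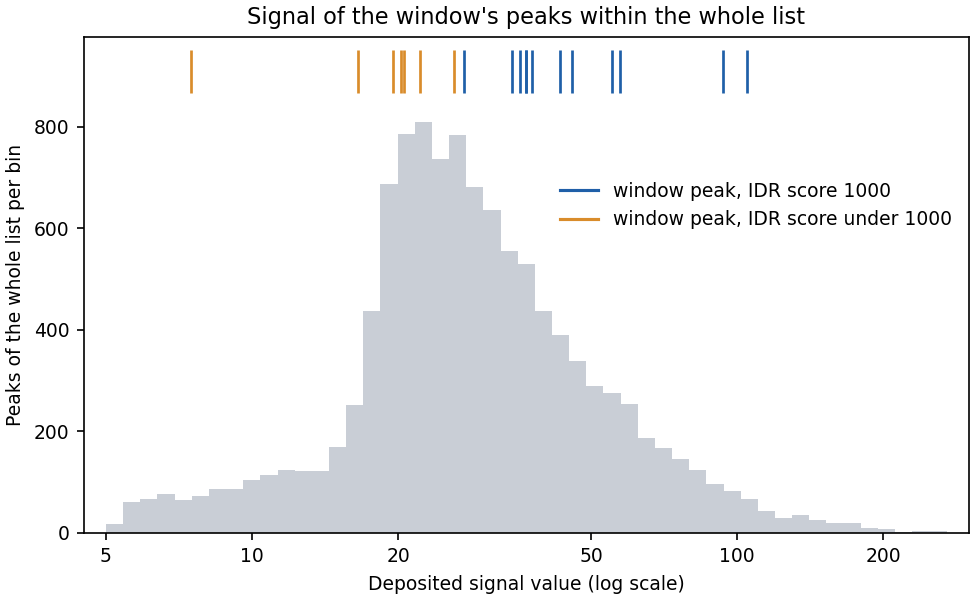
Histogram of the deposited signal value of all 11224 peaks (horizontal log axis; vertical axis, peaks per bin), with the 19 peaks of the Fgf10 window as ticks above it, blue for an IDR score of 1000 and orange for a lower score. The ticks run from 7.49 to 104.6, and 12 of them lie above the list median of 27.2.

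The 3 members narrower than the common width of 416 bp were the 3 strongest, peaks 2, 11 and 8. The other 16 members (84.2%) had exactly 416 bp, as did 84.3% of the list, with the summit at the midpoint. In the list the median signal was 66.6 for narrower peaks and 24.8 at the common width, but the classes overlapped widely there, with narrower peaks from 6.16 and peaks of common width up to 157.8. For the 16 members of common width the listed ends therefore do not trace the extent of each site.

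The Fgf10 window held more peaks than most windows of its length, and 1693 of the overlapping windows examined held more. The window held 11.2 peaks per Mb, 2.20 times the 5.08 per Mb of the rest of chromosome 13. Among 23524 overlapping windows of 1.7 Mb on the autosomes, 91.8% held fewer than 19 peaks and 7.20% held more. The median window held 6, the quartiles were 3 and 11, and the fullest held 78. The window of equal length just before it held 15 peaks with a median signal of 29.02, also above the median window.

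**Figure D4:**
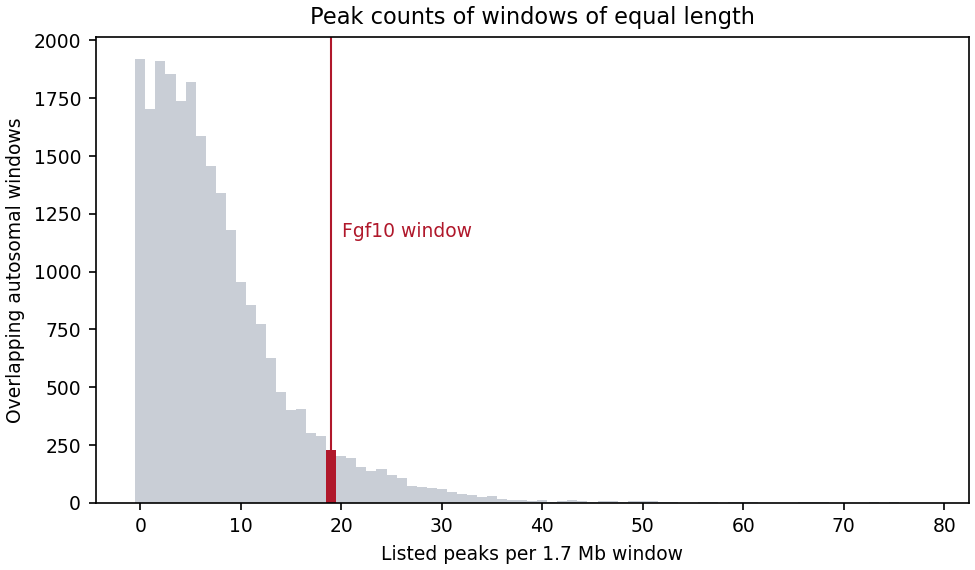
Number of overlapping autosomal windows of 1.7 Mb (vertical axis) by the number of listed peaks each holds (horizontal axis), with the count of the Fgf10 window in red. The red bar at 19 lies in the upper tail, with 7.20% of windows above it and a maximum of 78.

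The edges of the window cut through this density on one side only. The nearest peak outside, with its summit at 118495013, lay 4.99 kb before the start and had a signal of 30.9 and a score of 735. The first member inside was peak 1, with a signal of 35.7. At the other end, the last 367.5 kb of the window held no peak. By the mm9 length, chromosome 13 ends 84.3 kb after the window.

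Spacing among members was closer than in the list at some distances and not at others. The median distance from a member to its nearest listed neighbour in the window was 10.5 kb, against 17.6 kb in the list. A neighbour within 50 kb was present for 16 members (84.2%), against 66.8% of the list. The excess was smaller within 100 kb (84.2% against 78.3%) and within 10 kb (47.4% against 42.7%). At short range the members fell below the list. A neighbour within 2 kb was present for 4 members (21.1%), against 28.9%, and within 500 bp for 2 members (10.5%), against 20.1%. The only such pair was that of peaks 16 and 17. From 119.5 Mb, 5 members lay within 50 kb, 6 within 100 kb, 13 within 250 kb and 16 within 500 kb.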

How the data were processed

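Single-end reads of 75 bp were made from 2 TBX5 ChIP and 2 input libraries of forelimbs, per the labels' protocols. The data were 1 deposited peak list for the ChIP group, without a header, in the 10-column narrowPeak layout. The deposited signal value, the deposited IDR score (540 to 1000) and the deposited −log10 q-value are the authors'. The aligner, the peak caller and any pooling of reads are not given in the sources used here. The submitters' processing notes name mm10 and FastQC. Read depth is unknown from the list, so no counting interval was given.

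Summits were taken as start plus offset, and members as those of the Fgf10 window. The members and lists were chosen with earlier results of these data known. Windows of 1.7 Mb were moved in steps of 100000 bp between the first and last summit of each autosome. IDR was computed as 2 to the power of minus score/125. Chromosome lengths came from GenomeInfoDb 1.38.1. Python 3.11.15 with pandas 2.3.3, NumPy 2.4.6, SciPy 1.17.1 and matplotlib 3.10.9 were used, and the counting steps were tested on simulated data. Peaks named in full were the 10 strongest, the weakest and the one with the lowest score; the others, and the band of signal from 25 to 30, were chosen after their values were seen. The list of FGF pathway genes was not used, since no peak could be assigned to a gene.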

Additional observations from a re-analysis of the deposited data

How the results depend on the processing

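Of 32 alternative values for 6 results of the Fgf10 window, 30 stayed within 1.5 times the value reported, within 10 points for the percentile, or within the 95% exact binomial interval for the share with a score of at least 830. These limits are wide, and the binomial interval treats the 19 peaks as independent, so staying within them says little. The number of peaks was 12 among the higher-signal 50% of the list, in place of 19, and between 14 and 20 under the other 6 alternatives. This filter removes 50% of the list by construction, and 63.2% of the members remained. Joined within 50000 bp, the peaks formed 8 groups in place of the 14 joined within 10000 bp. The ratio of peak density to the rest of chromosome 13 lay between 2.07 and 2.82, and the percentile among windows of equal length between 91.1 and 94.1. The ratio of the median signal to that of the list fell from 1.31 to 1.03 when both were limited to scores of at least 830. This value counted among the 30, although little of the excess over the list remained. A window that ended at the last summit of chromosome 13, and the percentile without close stronger summits, were added after the data were seen. No paired analysis was possible because each peak carries 1 value for both replicates together, and leaving out a replicate could not be done either.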

Other observations

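The assignment of peaks to Fgf10 depends on the build. If the list were read as GRCm38, the build named in the labels, 2 of the 19 summits would fall inside the RefSeq Fgf10 gene, peaks 2 and 3, and peak 2 is the strongest of the window. Near 119.5 Mb, where mm9 has the gene, lie peaks 9 to 13 instead. The GRCm38 reading conflicts with the list, which ran past the mm10 end of 5 of 20 chromosomes but fitted within the mm9 lengths. Peaks 2 and 3 are therefore not placed inside Fgf10 here. The number of members does not depend on the build, because the window was set by position in the list alone.

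Peaks 9, 16 and 17 scored above the median of their own signal decile of the list. Peak 9 scored 1000 against a median of 984, peak 16 scored 917 against 858, and peak 17 scored 917 against 681. Peak 17 overlaps peak 16 and carries the same score, and whether that score reflects peak 17 by itself was not tested. Peaks 5, 7, 10, 18 and 19 scored below theirs, with 737 against 753, 589 against 654, 566 against 620, 631 against 654 and 608 against 654. The other 11 members lay in deciles with a median of 1000, and all 11 scored 1000. In these deciles of the list, between 94.8% and 100% of all peaks scored at least 830. High scores were thus common at such signals throughout the list, not only in the window.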
